A study of Mus musculus with 36 samples.

Results

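The 10 endoplasmic reticulum stress genes described here are Xbp1, Atf4, Atf6, Ddit3, Hspa5, Hsp90b1, Manf, Creld2, Pdia4 and Herpud1, taken by gene symbol from the 55470 rows counted in ribosome-bound RNA of mouse cortex. Of these 10 genes, 8 had enough counts to be tested, among 11341 genes in all, and Creld2 and Pdia4 did not. Ribosomes of pyramidal neurons were pulled down through an HA tag on the ribosomal protein Rpl22 (RiboTag), which a Cre recombinase driven by Camk2a switches on in excitatory neurons. Shank3 mice carried 1 mutated copy, Shank3(∆C/+), of the gene of a postsynaptic scaffold protein, and WT mice were littermates with Shank3(+/+). All mice of both genotypes also carried HA-Rpl22(f/+) and Camk2a-Cre(+/-) on a C57BL6JL background, per the genotype labels, while the extraction protocol writes HA-Rpl22(f/f). Swim mice were placed in water at 25 °C, for 5 min by one label and 6 min by another, and were killed 1 h or 4 h later, and naive mice stayed in their home cages. Cohort 1 held 5 Shank3 and 6 WT libraries at 1 h and 3 naive libraries of each genotype. Cohort 2 held 6 Shank3 and 5 WT libraries at 4 h and 4 naive libraries of each genotype. Each swim group was compared with naive mice of its own cohort, so the time after the swim and the cohort cannot be told apart. Ages are not stated in the sources used here. No label says that the libraries of a group came from separate animals, so p-values speak to the spread among libraries, which may be technical.

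The unfolded protein response is the answer of a cell to misfolded protein in the endoplasmic reticulum (ER). Its 3 sensors in the ER membrane are IRE1, which splices the Xbp1 message into that of an active factor, PERK, which slows translation while favouring that of Atf4, and ATF6, which is itself cut to release a transcription factor. ATF4 in turn induces Ddit3, the gene of the factor CHOP, and XBP1 and ATF6 induce the chaperones and degradation factors of the lumen through promoter elements known as ERSE, ERSE-II and UPRE. Splicing of Xbp1, translation of ATF4 and cleavage of ATF6 cannot be read from counts per gene.

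Promoter sequences from RefSeq are printed to show which members carry these elements, and any part of the elements in the results was not tested. Windows from 250 bases before to 50 bases after the RefSeq start (GRCm38.p6) were at hand for 8 of the 10 members, all but Atf6 and Manf. ERSE was searched as CCAAT, any 9 bases and CCACG, ERSE-II as ATTGG, any base and CCACG, UPRE as TGACGTGG and the ATF4 element as TGATGNAA, on both strands and allowing overlaps. Each sequence runs 5′ to 3′ on the strand of its gene, with the matched element in capitals.
Hspa5, chr2:34772005-34772063, plus strand, ERSE: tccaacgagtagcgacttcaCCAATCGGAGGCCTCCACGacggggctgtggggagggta
Hsp90b1, chr10:86705618-86705676, minus strand, ERSE: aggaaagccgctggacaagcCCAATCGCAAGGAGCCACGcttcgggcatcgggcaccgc
Hsp90b1, chr10:86705513-86705571, minus strand, ERSE reversed: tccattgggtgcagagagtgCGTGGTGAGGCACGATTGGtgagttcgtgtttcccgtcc
Creld2, chr15:88819500-88819558, plus strand, ERSE reversed: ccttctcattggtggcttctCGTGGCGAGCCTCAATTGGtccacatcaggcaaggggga
Herpud1, chr8:94386357-94386407, plus strand, ERSE-II: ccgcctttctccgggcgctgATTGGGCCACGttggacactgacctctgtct
Herpud1, chr8:94386297-94386344, plus strand, ATF4 element reversed: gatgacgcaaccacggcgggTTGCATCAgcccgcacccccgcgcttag
Calr, chr8:84847055-84847113, minus strand, ERSE reversed: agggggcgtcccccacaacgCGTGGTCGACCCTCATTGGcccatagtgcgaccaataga
Pdia6, chr12:17266471-17266529, plus strand, ERSE: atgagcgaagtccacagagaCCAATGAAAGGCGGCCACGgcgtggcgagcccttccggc
Canx, chr11:50325780-50325838, minus strand, ERSE: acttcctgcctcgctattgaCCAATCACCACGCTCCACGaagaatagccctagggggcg

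ERSE stood in the windows of Hspa5, Hsp90b1 and Creld2, and in 0.119% of 32817 windows of the same length. ERSE-II stood in that of Herpud1 and in 0.0366% of all windows, UPRE in no member and in 0.676%, and the ATF4 element in Herpud1 and in 3.97%. Xbp1, Atf4, Ddit3 and Pdia4 had no match to these letters. Of the 23 further ER chaperones and folding enzymes listed, 20 had a window and 4 held ERSE, namely Calr, Canx, Dnajc3 and Pdia6. Of the list of degradation factors, 14 had a window and Derl3 and Syvn1 held ERSE. In the list of ATF4 and CHOP targets, 9 of the 23 genes with a window held the ATF4 element, among them Asns, Gars and Slc7a11.

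Libraries held 0.884 to 3.52 M counts. Rows with an exon opposite an exon of another gene held 75.7% of all counts, and rows without any gene opposite held 19.2%. The labels name a kit that keeps the strand, while the sources used here do not state the strand setting of the counting, so which strand a row counts is not known. In pairs of an antisense and a coding row with overlapping exons, the share of counts on the coding row, called the pair share, was 17.5% to 33.1% in Shank3 and 17% to 31.6% in WT libraries at 4 h, against 11.9% to 15.0% and 11.7% to 14.9% in their naive mice. At 1 h it was 12.6% to 16.8% in Shank3 and 11.4% to 17% in WT libraries, against 10.8% to 11.9% and 10.7% to 11%. In every library the antisense rows thus held most counts of these pairs. A row, also one without any gene opposite, may therefore hold mainly reads of the strand opposite its gene. Levels below are those of rows, and whether they follow the genes' own messages was not tested. Levels are given as CPM, counts per M counts of the library size scaled by TMM. The Shank3 row, a count over the whole gene that does not test the deleted part, held 9 to 146 counts in Shank3 and 4 to 118 counts in WT libraries. All 8 markers of pyramidal neurons were measured, with a summed level of 2212 to 3720 CPM in Shank3 and 2277 to 3881 CPM in WT libraries at 4 h, against 1574 to 1956 CPM and 1431 to 2067 CPM in their naive mice. Summed markers of oligodendrocytes, 4 of 6 with enough counts to be tested, were at 123 to 325 CPM and 116 to 269 CPM at 4 h, against 71.6 to 123 CPM and 84.2 to 89.8 CPM, astrocyte markers, 2 of 6 tested, at 13.3 to 20.5 CPM and 12.1 to 22.4 CPM, against 6.62 to 15.7 CPM and 8.08 to 22.9 CPM, and interneuron markers, 3 of 6 tested, at 13 to 42.6 CPM and 10.8 to 33.4 CPM, against 7.16 to 31.9 CPM and 6.92 to 17.1 CPM. Markers of oligodendrocyte precursors, endothelial cells, choroid plexus and blood had few or no counts, with Cldn5, the endothelial tight junction gene, at 0 in all libraries. Of the microglial markers, Csf1r, which has an exon opposite another gene, was the single gene tested. It held 26695 counts over 36 libraries, and the other 5 had 2 to 41 counts. Summed with Csf1r, the microglial level was 163 to 358 CPM in Shank3 and 169 to 384 CPM in WT libraries at 4 h. In their naive mice it was 557 to 800 CPM and 578 to 871 CPM. Whether the Csf1r row holds reads of Csf1r itself was not tested. The part of these differences in the results was not tested, and in pulldown samples a change in the number of tagged cells cannot be told apart from a change of RNA per cell.

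Xbp1, Atf4 and Herpud1 were higher 4 h after the swim in both genotypes, and Ddit3 was lower. In Shank3 mice 5 of the 8 tested members rose and 1 fell at 4 h, and in WT mice 4 rose and 1 fell (edgeR quasi-likelihood test, adjusted p under 0.05 over all genes tested). Against these counts, 32.7% of all genes tested rose and 29.4% fell in Shank3 mice and 29% rose and 26.9% fell in WT mice, 62.1% and 56% in either direction. Among rows without any gene opposite, 44.8% rose in Shank3 and 38.4% in WT mice. The median log2 fold change of the members was 0.85 in Shank3 and 0.64 in WT mice, against 0.22 and 0.23 over all genes tested and 0.62 and 0.58 over rows without any gene opposite. Scaling by total counts alone moved the median of all genes to 1.17 and 0.98, and 7 and 6 members then passed.

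**Figure D1:**
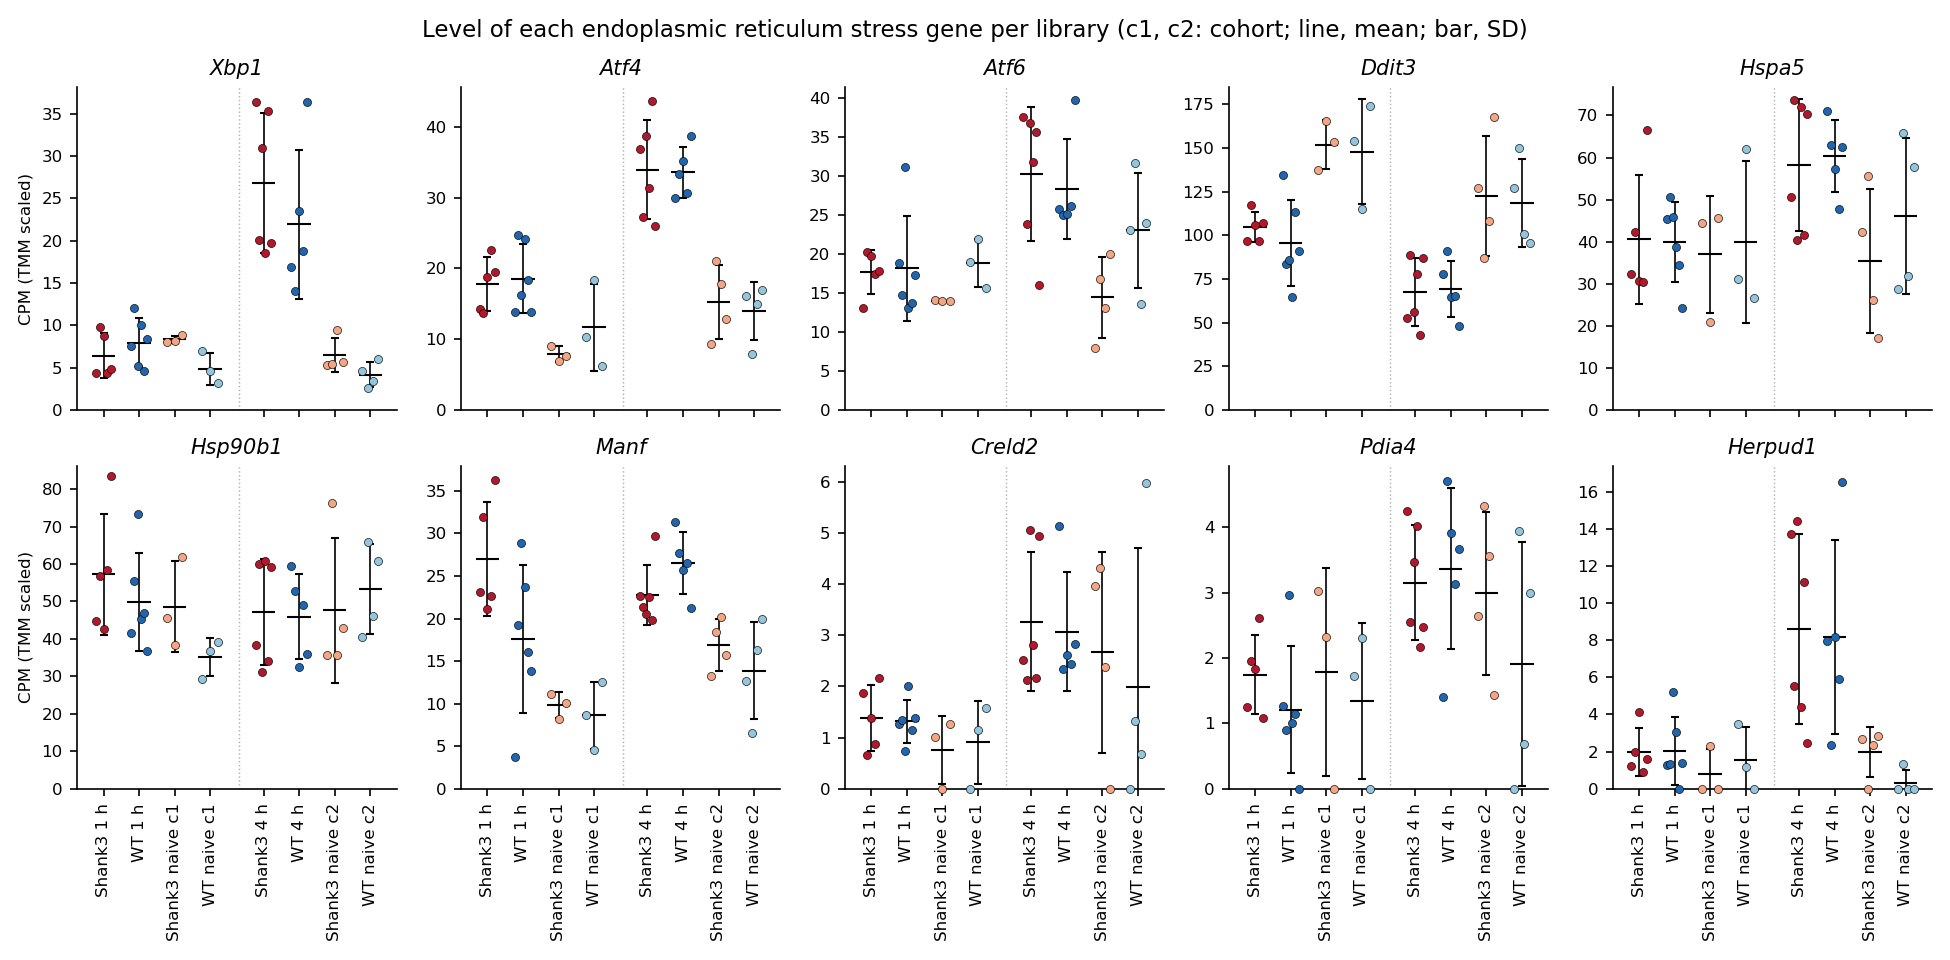
Level of each member in CPM (y axis, linear, from 0) in all 36 libraries, in 8 groups along the x axis (c1 and c2 are cohorts 1 and 2), with the mean as a line and the SD as a bar. Xbp1 lies between 18.5 and 36.4 CPM in Shank3 and between 14.1 and 36.4 CPM in WT libraries at 4 h, above every naive library.

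Xbp1 (chromosome 11, 5520659 to 5525893, plus strand, mm10), the factor of the IRE1 branch, has no gene opposite. Its level in Shank3 libraries at 4 h had a lowest value of 18.5, a median of 25.5 and a highest of 36.4 CPM, against 5.30, 5.41, 9.50 and 5.73 CPM in naive Shank3 libraries. In WT mice it was 16.8, 14.1, 23.5, 18.8 and 36.4 CPM at 4 h, against 4.62, 2.63, 3.40 and 5.98 CPM in naive libraries. The swim and naive groups do not overlap in either genotype, which held upward for 20.5% of the genes tested in Shank3 and 21.3% in WT mice. The log2 fold change was 2.09 ± 0.33 (SE) in Shank3 mice (n = 6 and 4, edgeR adjusted p = 4.42e-06) and 2.42 ± 0.37 in WT mice (n = 5 and 4, edgeR adjusted p = 5.88e-06). Less the median of rows without any gene opposite, the log2 fold changes were 1.47 and 1.84. Counts of Xbp1 per 100 counts of Hspa5, a ratio that needs no scaling between libraries, had medians of 49.9 in Shank3 and 39.4 in WT libraries at 4 h, against 22.9 and 10.5 in naive ones. By this ratio the Shank3 groups overlap, at 25.7 to 85.1 against 9.71 to 36.4. The naive Shank3 ratios of 36.4 and 33.3 rest on 22 and 12 counts of Hspa5. The WT groups, at 22.4 to 58.3 against 4 to 16, do not overlap.

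Atf4 (chromosome 15, 80255184 to 80257541, plus strand), the factor of the PERK branch and of amino acid shortage, also has no gene opposite. At 4 h it had a lowest value of 25.9, a median of 34.2 and a highest of 43.6 CPM in Shank3 libraries, against 9.27, 21.1, 17.8 and 12.9 CPM in naive ones. WT libraries had 29.9, 33.4, 35.2, 30.6 and 38.7 CPM at 4 h, against 16.2, 7.90, 15.0 and 16.9 CPM. Again no swim library overlaps a naive one, as held upward for 20.5% of the genes tested in Shank3 and 21.3% in WT mice. The log2 fold change was 1.09 ± 0.24 (SE) in Shank3 mice (edgeR adjusted p = 0.000197) and 1.24 ± 0.25 in WT mice (edgeR adjusted p = 0.000106), or 0.47 and 0.66 above that median.

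Atf6 (chromosome 1, 170704674 to 170867771, minus strand), the membrane-bound factor, rose past the threshold in Shank3 mice, with a log2 fold change of 1.06 ± 0.27 (edgeR SE, adjusted p = 0.000933). Its level there had a lowest value of 16.1, a median of 33.7 and a highest of 37.5 CPM at 4 h, against 7.95, 16.8, 13.1 and 20.0 CPM in naive mice, so the groups overlap. In WT mice it was 25.7, 24.9, 25.1, 26.1 and 39.7 CPM at 4 h, against 23.1, 31.6, 13.6 and 23.9 CPM, with a log2 fold change of 0.36 ± 0.26 (edgeR adjusted p = 0.234). The difference between the genotypes' responses was 0.71 ± 0.37 on the log2 scale with an edgeR adjusted p of 1, and did not pass.

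Ddit3 (chromosome 10, 127290774 to 127296288, plus strand), the gene of the pro-apoptotic factor CHOP, fell in both genotypes. Its level had a lowest value of 42.7, a median of 66.8 and a highest of 88.6 CPM in Shank3 libraries at 4 h, against 127, 87.1, 108 and 167 CPM in naive ones. WT libraries had 77.6, 90.8, 64.9, 65.5 and 48.2 CPM at 4 h, against 127, 150, 101 and 95.7 CPM, and here the groups do not overlap, which held downward for 19.3% of the genes tested. Log2 fold changes were -0.86 ± 0.21 (edgeR SE, adjusted p = 0.000857) in Shank3 and -0.77 ± 0.22 (edgeR adjusted p = 0.00393) in WT mice. The exons of Ddit3 lie opposite 68 exon bases of Mars, a tRNA synthetase gene, and 13 of Gm4189, and without the strand setting their reads cannot be told apart. Mars changed by -0.82 and -1.32 and Gm4189 by -2.03 and -2.02 on the log2 scale in Shank3 and WT mice, all past the threshold. The median over all genes with an exon opposite an exon was -0.64 in Shank3 and -0.51 in WT mice. With scaling by total counts alone the value of Ddit3 was 0.14 in Shank3 and -0.01 in WT mice, and neither passed.

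Hspa5 (chromosome 2, 34771970 to 34777547, plus strand), the gene of BiP, the main chaperone of the lumen, which also holds the sensors inactive, was close to the threshold. In Shank3 mice its lowest, median and highest levels at 4 h were 40.5, 60.5 and 73.7 CPM, against 42.4, 55.7, 26.1 and 17.2 CPM in naive mice, a log2 fold change of 0.64 ± 0.29 (edgeR SE, adjusted p = 0.0497). The 2 lowest naive libraries, Shank3 replicates 6 and 7, are also those with 10% or more of their counts on a ribosomal RNA row. Without the libraries high in ribosomal RNA the value was 0.22 with an adjusted p of 0.607, and leaving out single libraries ended the call in 19 of 36 cases. Over all 36 the value ran from 0.44 without Shank3 naive replicate 7 to 1.01 without Shank3 naive replicate 5. WT libraries had 71.1, 63.0, 57.4, 47.7 and 62.4 CPM at 4 h, against 28.8, 65.8, 32.0 and 57.8 CPM, a log2 fold change of 0.40 ± 0.29 (edgeR adjusted p = 0.227). Swim and naive libraries overlap in both genotypes.

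Hsp90b1 (chromosome 10, 86690209 to 86705509, minus strand), the gene of the lumenal Hsp90 protein GRP94, did not pass at 1 h or 4 h. At 4 h it had a lowest value of 31.2, a median of 48.8 and a highest of 60.7 CPM in Shank3 libraries, against 35.8, 76.2, 35.6 and 42.9 CPM, and 59.4, 52.7, 32.6, 49.1 and 36.0 CPM in WT libraries, against 40.4, 65.8, 46.3 and 60.8 CPM. The log2 fold changes were -0.08 ± 0.24 (edgeR SE, adjusted p = 0.798) and -0.22 ± 0.25 (adjusted p = 0.465). With total counts alone they were 0.80 (edgeR adjusted p = 0.012) and 0.52 (adjusted p = 0.109), below the shift of all genes under that scaling. Its exons lie opposite 415 exon bases of 1810014B01Rik, whose row held 9107 counts against 3065 for Hsp90b1, so its own reads are uncertain.

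Manf (chromosome 9, 106838312 to 106891979, minus strand), a secreted neurotrophic ER protein, rose in WT mice at 4 h. WT libraries had 31.3, 27.8, 25.8, 26.5 and 21.2 CPM, all above the naive values of 12.7, 6.58, 16.3 and 19.9 CPM, as held for 21.3% of the genes tested. The log2 fold change was 0.87 ± 0.29 (edgeR SE, adjusted p = 0.00974), or 0.68 with an adjusted p of 0.0555 without WT naive replicate 5. In Shank3 libraries the lowest, median and highest levels were 19.8, 21.9 and 29.6 CPM, against 13.2, 18.4, 20.2 and 15.7 CPM in naive ones, a log2 fold change of 0.39 ± 0.27 (edgeR adjusted p = 0.205). Exons of Manf lie opposite 166 exon bases of 4930524O07Rik, whose row held 68302 counts against 1386 for Manf, and 146 bases of Dcaf1. Both of those rows fell at 4 h, by 1.24 and 1.61 on the log2 scale in Shank3 mice and by 0.83 and 1.12 in WT mice. Without the strand setting, reads of Manf cannot be told apart from theirs, so its own reads are uncertain.

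Herpud1 (chromosome 8, 94386438 to 94395377, plus strand), a membrane protein of ER-associated degradation whose promoter holds the ERSE-II printed above, rested on few counts in naive mice. The 4 h libraries held 189 counts in 6 Shank3 and 163 in 5 WT libraries, against 6 and 1 counts in 4 naive libraries each. Scaled to library size these are ratios of 7.02 with an exact 95% binomial interval of 3.16 to 19.4 in Shank3 mice and 41.3 with an interval of 7.30 to 1640 in WT mice, both covering counting error only. Herpud1 passed the test in both (edgeR adjusted p = 0.00257 and 0.000205, with fitted log2 fold changes of 2.54 and 4.80 that depend on the few naive counts and an SE that is too small for them). Levels ran from 2.47 to 14.4 CPM in Shank3 and from 2.35 to 16.5 CPM in WT libraries at 4 h, against 0 to 2.86 CPM and 0 to 1.32 CPM in naive ones. The groups thus overlap in Shank3 and do not in WT mice, where the latter held upward for 21.3% of the genes tested. Between the genotypes at 4 h the ratio was 1.01, with an interval of 0.814 to 1.25 that again covers counting error only. With the spread among libraries, the fitted log2 fold change was 0.08 ± 0.38 (edgeR SE).

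Creld2 and Pdia4, a chaperone and a disulfide isomerase of the lumen, had 156 and 171 counts over all 36 libraries and were not tested. At 4 h Creld2 held 59 counts in Shank3 and 48 in WT libraries, against 13 and 8 in naive ones, ratios of 1.01 (interval 0.548 to 2.01) and 1.52 (0.712 to 3.72). Pdia4 held 62 and 56 counts, against 14 and 7, ratios of 0.987 (0.546 to 1.91) and 2.03 (0.921 to 5.27). All 4 intervals include 1, so no difference was detectable at this depth.

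At 1 h after the swim Manf was higher in both genotypes and Atf4 in Shank3 mice, and Xbp1 passed in neither. Of the 8 tested members 2 rose in Shank3 mice, where 4.99% of all genes tested rose, 7.25% fell and 12.2% changed in either direction. In WT mice 1 rose and 1 fell, where 16.9% rose, 17.3% fell and 34.2% changed.

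Manf had 23.1, 32.0, 21.1, 22.7 and 36.3 CPM in Shank3 libraries at 1 h, all above the naive 11.1, 8.14 and 10.1 CPM, as held for 12.4% of the genes tested. Its log2 fold change was 1.46 ± 0.36 (edgeR SE, adjusted p = 0.0134), with adjusted p of 0.117 and 0.0515 without Shank3 naive replicates 2 and 3. In WT libraries the lowest, median and highest levels were 3.78, 17.7 and 28.9 CPM, against 8.64, 4.6 and 12.6 CPM, a log2 fold change of 1.15 ± 0.40 (edgeR adjusted p = 0.0256). That call ended without WT naive replicates 1 or 2 or WT 1 h replicates 3 or 4, with adjusted p from 0.0552 to 0.196. On the opposite strand, Dcaf1 fell at 1 h, by 0.87 in Shank3 and 0.65 in WT mice, while 4930524O07Rik had log2 fold changes of 0.13 and 0.11 that did not pass. The own reads of Manf are thus uncertain at 1 h as well.

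Atf4 had 14.3, 13.7, 18.8, 22.7 and 19.5 CPM in Shank3 libraries at 1 h, above the naive 9.10, 6.97 and 7.59 CPM, again as for 12.4%, a log2 fold change of 1.15 ± 0.34 (edgeR SE, adjusted p = 0.0276). Leaving out Shank3 naive replicates 2 or 3 or Shank3 1 h replicates 3 or 4 ended this call, with adjusted p of 0.159, 0.0808, 0.0649 and 0.0501. In WT mice its value was 0.64 ± 0.32 with an adjusted p of 0.112, and the interaction between genotype and swim, 0.51 ± 0.47, did not pass (edgeR adjusted p = 1).

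Ddit3 had 96.6, 117, 106, 96.8 and 107 CPM in Shank3 libraries at 1 h, each below the naive 137, 165 and 153 CPM, as held for 16.2% of the genes tested. It did not pass, with a log2 fold change of -0.53 ± 0.24 (edgeR SE, adjusted p = 0.12), but did by limma with quality weights, at -0.52 (adjusted p = 0.0375). In WT mice, with a lowest value of 64.6, a median of 88.4 and a highest of 135 CPM at 1 h against 154, 115 and 174 CPM, it fell by 0.64 ± 0.24 (edgeR adjusted p = 0.0341). Its call there ended without WT naive replicates 1 or 3 or WT 1 h replicates 2, 3 or 4, with adjusted p from 0.0519 to 0.178. Mars, opposite Ddit3, changed by -0.86 in Shank3 and -0.85 in WT mice, past the threshold in both.

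Xbp1 was at 4.36, 9.78, 8.73, 4.36 and 4.87 CPM in Shank3 libraries at 1 h, against 8.09, 8.14 and 8.86 CPM in naive ones, a log2 fold change of -0.35 ± 0.43 (edgeR SE, adjusted p = 0.6). In WT mice the lowest, median and highest were 4.58, 7.94 and 12.1 CPM, against 6.92, 4.6 and 3.14 CPM, a log2 fold change of 0.80 ± 0.50 (edgeR adjusted p = 0.203). The genotypes thus had values of opposite sign, and the interaction was -1.15 ± 0.66 with an edgeR adjusted p of 1. These are libraries with 2 to 27 counts of Xbp1. For Atf6, Hspa5 and Hsp90b1 the log2 fold changes at 1 h ran from -0.08 to 0.51 and none passed.

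**Figure D2:**
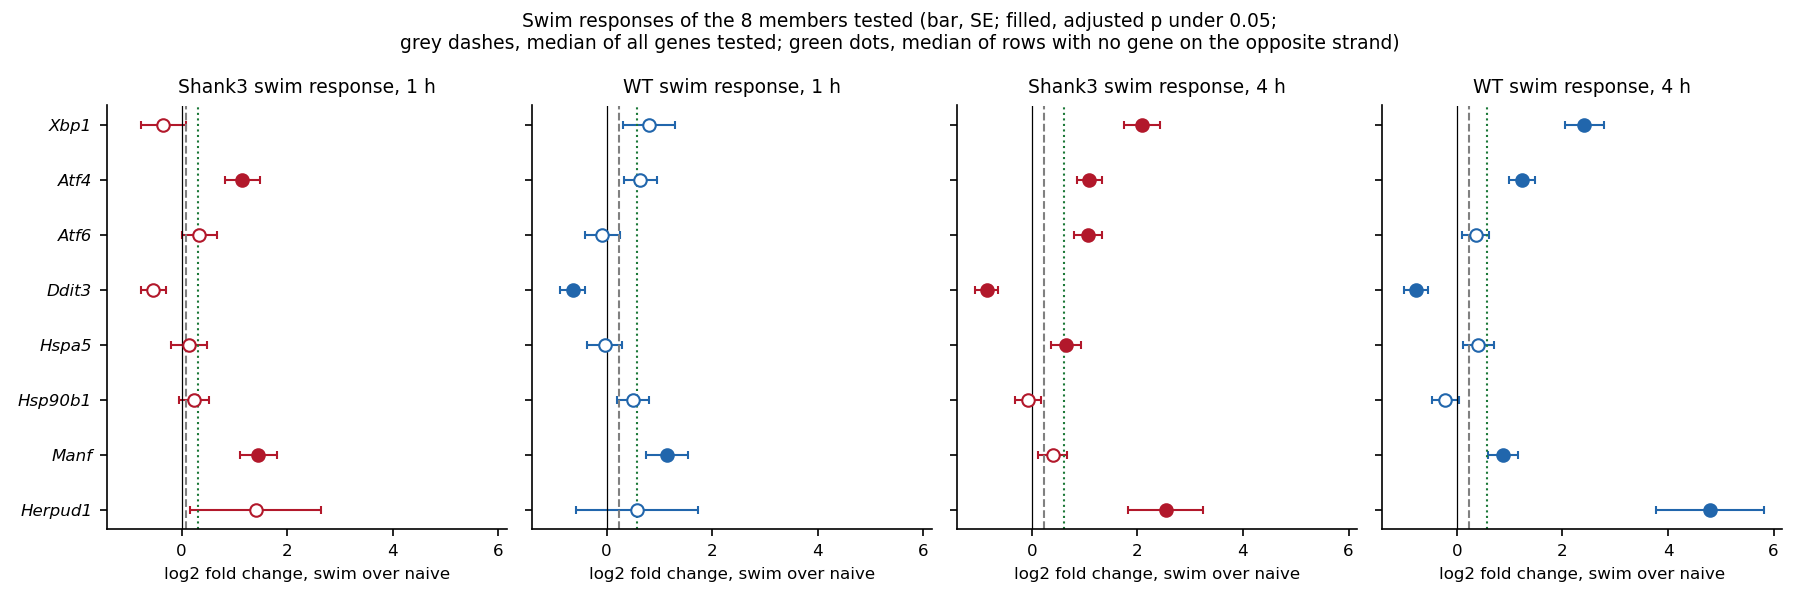
Log2 fold change of swim over naive mice (x axis) with its SE for the 8 tested members (rows), in Shank3 and WT mice at 1 h and 4 h (panels), filled where the adjusted p is under 0.05. Grey dashes mark the median of all genes tested and green dots that of rows without any gene opposite, 0.62 and 0.58 at 4 h, and Xbp1 and Herpud1 lie to the right of both lines at 4 h.

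Between Shank3 and WT mice 0 of the 8 members passed in naive mice, at 1 h, at 4 h or in the interactions (edgeR), where 0 to 1 of all genes tested did, 0.00882% in naive mice and at 4 h and 0% in the others. At an unadjusted p under 0.05, 1 of the 8 members stood in naive mice and 1 at 1 h, against 539 and 205 of the 11341 genes tested. Atf6 was lower in naive Shank3 mice with a log2 fold change of -0.52 ± 0.25 (SE, unadjusted p = 0.044, edgeR adjusted p = 1), and Manf was higher in Shank3 mice at 1 h with 0.56 ± 0.24 (unadjusted p = 0.0254, edgeR adjusted p = 1). In cohort 1 the naive Shank3 libraries lay outside the WT ones for both Xbp1 and Atf6. Xbp1 had 8.09, 8.14 and 8.86 CPM in naive Shank3 libraries of cohort 1, above the 6.92, 4.6 and 3.14 CPM of WT ones, as held for 7.82% of the genes tested. Atf6 had 14.2, 13.9 and 13.9 CPM, below 19.0, 21.9 and 15.7 CPM, as held for 5.23%. In cohort 2 both genes overlap between the genotypes. Over both cohorts Xbp1 had a log2 fold change of 0.69 ± 0.38 (edgeR adjusted p = 1). At 4 h Xbp1 was at 0.28 ± 0.22 and Manf at -0.22 ± 0.22, with adjusted p of 1 in the edgeR fit. By limma with quality weights, which called 2787 of the genes tested at 4 h against 1 by edgeR, Xbp1 passed with 0.61 (adjusted p = 0.0126).

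Several members moved with the pair share from library to library within groups. In Shank3 mice at 4 h, 3 libraries had a pair share of 30.1% to 33.1% and the other 3 of 17.5% to 21.8%. Xbp1 was at 30.9 to 36.4 CPM in the first 3 and at 18.5 to 20.0 CPM in the others, and Herpud1 at 11.1 to 14.4 against 2.47 to 5.54 CPM, both higher where the pair share was high. Ddit3 was lower there, at 42.7 to 56.0 against 77.6 to 88.6 CPM, as were Hspa5, at 40.5 to 50.7 against 70.4 to 73.7 CPM, and Hsp90b1, at 31.2 to 38.3 against 59.3 to 60.7 CPM. In the 1 WT library at 4 h with a pair share that high, Hspa5 at 62.4 CPM and Hsp90b1 at 36.0 CPM lay inside the 47.7 to 71.1 CPM and 32.6 to 59.4 CPM of the other 4. As deviations from the means of the 8 groups, over 36 libraries that share their depth and scaling, the correlation with the pair share was r = 0.62 (Spearman 0.56) for Xbp1, 0.54 (0.65) for Atf4, 0.42 (0.37) for Atf6, 0.38 (0.35) for Herpud1 and -0.82 (-0.84) for Ddit3. For Hspa5 it was -0.14 (-0.13), for Hsp90b1 -0.31 (-0.30) and for Manf 0.15 (0.07), against a median of 0.14 over all genes tested and of 0.30 over tested rows without any gene opposite, the class of Xbp1, Atf4, Atf6 and Hspa5. Within cohorts 1 and 2 the values were 0.40 and 0.77 for Xbp1, 0.56 and 0.59 for Atf4, 0.27 and 0.47 for Herpud1 and -0.66 and -0.88 for Ddit3. The cohorts differed more for Atf6, with 0.032 and 0.55, for Manf, with 0.46 and -0.076, for Hspa5, with 0.027 and -0.22, and for Hsp90b1, with 0.088 and -0.47. Without the 2 libraries farthest from the median pair share the value was 0.56 for Xbp1 and -0.79 for Ddit3.

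**Figure D3:**
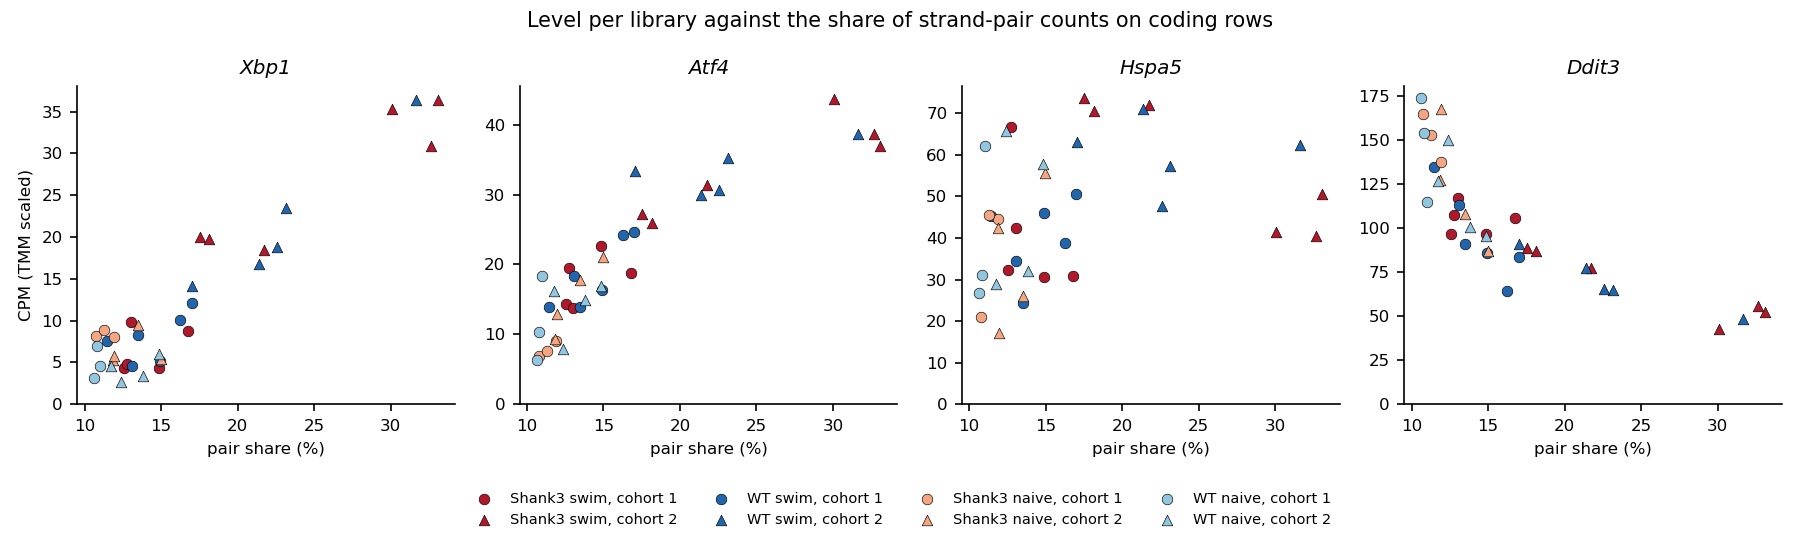
Level in CPM (y axis, linear, from 0) against the pair share in percent (x axis) of each of the 36 libraries for Xbp1, Atf4, Hspa5 and Ddit3, by genotype, treatment and cohort. The 4 libraries with a pair share of 30% or more are all from 4 h, with 30.9 to 36.4 CPM of Xbp1.

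With the pair share as a covariate, 0 of the members passed in Shank3 and 2 in WT mice at 4 h, where the fit called 60 and 872 genes in all. Xbp1 then had a log2 fold change of 0.95 in Shank3 mice (edgeR adjusted p = 0.168) and 1.41 in WT mice (adjusted p = 0.00909), and Manf 0.95 in WT mice (adjusted p = 0.0483). The pair share does not overlap between swim libraries and the naive ones of their genotype and cohort at 1 h or 4 h, so it and the swim cannot be told apart, which also holds for the covariate fit at 1 h. Without the 4 libraries of 30% or more, an alternative chosen after the values were seen, 4 members passed in Shank3 and 5 in WT mice. Xbp1 was then at 1.60 (adjusted p = 0.000384) and 2.16 (edgeR adjusted p = 2.2e-06), Atf4 at 0.81 (0.0148) and 1.2 (0.000144), and Hspa5 at 0.95 in Shank3 mice (0.0118), while Herpud1 in Shank3 mice, at 1.47, and Ddit3 in Shank3 mice, at -0.51, did not pass (0.102 and 0.0521). In the edgeR fit on rows without any gene opposite, which holds 4 of the members, Xbp1 had 1.66 (adjusted p = 3.71e-05) and 2.01 (1.87e-05) and Atf4 0.65 (0.00697) and 0.84 (0.00161) in Shank3 and WT mice. Atf6 had 0.63 (0.0356) and -0.05 (0.894) there, and Hspa5 0.23 (0.542) and 0.02 (0.971).

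Within groups, Hspa5 varied from library to library together with other chaperones of the lumen, while its correlation with Xbp1 over all libraries was -0.16. Among 7640 genes whose mean log2 CPM reached 3, the 5 whose deviations from the group means followed those of Hspa5 most closely over 36 libraries were Kidins220, a neurotrophin receptor scaffold (r = 0.80), Calr, the gene of the lumenal chaperone calreticulin (0.76), Tmeff1 (0.71), Hsp90b1 (0.67) and Nck1, an adaptor protein (0.67). Spearman values were 0.75, 0.76, 0.73, 0.65 and 0.71. The median over the genes compared was 0.06. For Hsp90b1 the correlation was 0.65 among the 17 libraries of cohort 1, 0.70 among the 19 of cohort 2, 0.70 without the 3 libraries high in ribosomal RNA and 0.70 without the 2 libraries farthest from the median of Hspa5. For Calr these values were 0.75, 0.77, 0.80 and 0.85. Calr itself, with no gene opposite, was at 91.1 ± 16.9 CPM in Shank3 and 92.1 ± 15.6 CPM in WT libraries at 4 h, against 88.7 ± 13.5 and 103 ± 33.2 CPM in naive ones (SD, n = 6, 5, 4 and 4), with log2 fold changes of 0.02 and -0.16 that did not pass. All 8 further chaperones and folding enzymes with enough counts had a positive correlation with Hspa5, from 0.25 to 0.76 with a median of 0.52. Pdia3, a disulfide isomerase of glycoproteins, was at 0.66, Dnajb11, a cochaperone of BiP, at 0.55, and Pdia6 and Canx, which hold ERSE as printed above, at 0.52. Syvn1, which also holds ERSE, was at 0.078, and no ERSE was found for Pdia3. The translocon list had a median of 0.20 over 7 genes, the sensors of 0.16 over 3, degradation factors of 0.07 over 9, and ATF4 and CHOP targets of 0.03 over 13. Single genes of these lists lay as high as the chaperones, with Sec62, of the translocon, at 0.66, Erlec1, a lectin of degradation, at 0.64 and Nars, a tRNA synthetase gene, at 0.61.

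The correlation with Hspa5 was -0.16 for Xbp1, 0.10 for Atf4, 0.00 for Atf6 and -0.22 for Herpud1, with -0.03 for Ddit3 and -0.02 for Manf. For Atf4 it was 0.51 in cohort 1 and -0.30 in cohort 2, so its value over all libraries describes neither. In cohorts 1 and 2 it was 0.079 and -0.37 for Xbp1, 0.27 and -0.17 for Atf6 and -0.092 and -0.34 for Herpud1. These correlations are descriptions over libraries that share their scaling, and their genes are not independent of each other.

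**Figure D4:**
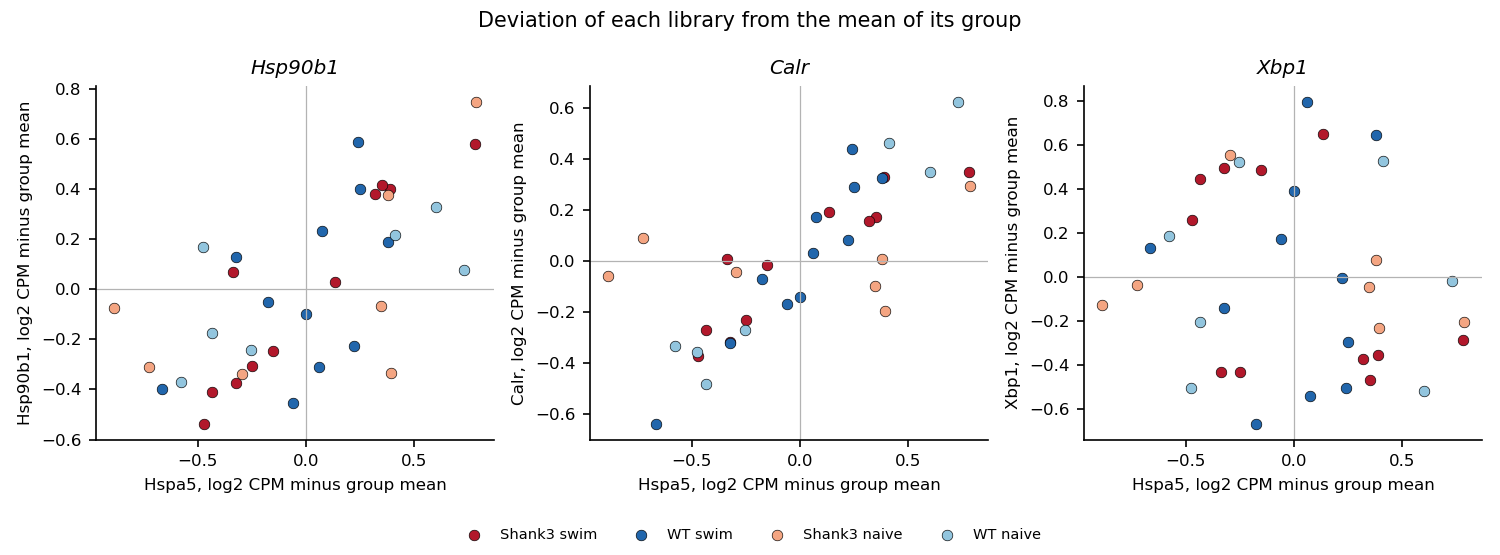
Deviation of the log2 CPM of Hsp90b1, Calr and Xbp1 from the mean of the library's group (y axes) against that of Hspa5 (x axis), 1 point per library, coloured by genotype and treatment. Points run along a diagonal for Hsp90b1 (r = 0.67) and Calr (r = 0.76) and show no such line for Xbp1 (r = -0.16).

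Per kb of exon, the order of the members' levels put Ddit3 first in every group, with 39.4 ± 11.4 in Shank3 and 40.5 ± 9.27 CPM per kb in WT libraries at 4 h, against 71.5 ± 20.0 and 69.1 ± 14.7 CPM per kb in their naive mice (SD). At 4 h in WT mice Hspa5 at 14.3 ± 2.03, Atf4 at 14.2 ± 1.52 and Hsp90b1 at 11.4 ± 2.81 CPM per kb followed and did not differ beyond their spread. Manf at 7.52 ± 1.04 and Xbp1 at 6.75 ± 2.70 came next, then Herpud1 at 3.51 ± 2.23, Atf6 at 3.07 ± 0.693, Creld2 at 2.25 ± 0.857 and Pdia4 at 1.4 ± 0.514 CPM per kb, with neighbours that overlap in each case. Naive WT mice of cohort 2 had 1.28 ± 0.451 CPM per kb of Xbp1 and 0.141 ± 0.282 of Herpud1, which had the lowest mean of the members there. Since Ddit3, Hsp90b1 and Manf share exon bases with rows on the other strand, their places in this order are uncertain.

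Of the other genes of the pathway, taken from 5 lists, some of each list rose and some fell at 4 h, with 21.1% to 57.1% of the tested genes of a list rising, where 32.7% of all genes tested rose in Shank3 and 29% in WT mice, and 29.4% and 26.9% fell. Among rows without any gene opposite, 44.8% rose and 11.7% fell in Shank3 mice and 38.4% rose and 11.6% fell in WT mice. The median log2 fold changes of that class were 0.62 and 0.58. Among the 7 tested of 10 sensors and their processing factors, 3 rose and 1 fell in Shank3 and 4 rose and 1 fell in WT mice, with medians of 0.67 and 0.52. Mbtps1, the protease that first cuts ATF6, rose by 1.59 ± 0.46 (edgeR SE, adjusted p = 0.00331) in Shank3 and 1.31 ± 0.46 (adjusted p = 0.0149) in WT mice, and Wfs1, an ER membrane protein, by 1.21 and 1.34 (adjusted p = 0.0101 and 0.0108). Rtcb, the ligase that joins the spliced Xbp1 message, rose by 0.69 and 0.52 (edgeR adjusted p = 0.00219 and 0.0229), and Creb3, a relative of ATF6, changed by -1.33 and -1.28 (adjusted p = 9.77e-06 and 4.29e-05). Rtcb and Creb3 have an exon opposite another gene. Eif2ak3, the gene of PERK, had log2 fold changes of 0.63 (edgeR adjusted p = 0.259) in Shank3 and 1.39 (adjusted p = 0.0435) in WT mice, and their difference did not pass. Ern1, the gene of IRE1, had 25 counts in all and was not tested.

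Among the 19 tested of 23 further chaperones and folding enzymes, 4 rose and 1 fell in each genotype, 21.1% rising in each, with medians of 0.53 in Shank3 and 0.19 in WT mice. Canx, the gene of the membrane-bound lectin chaperone calnexin, changed by -0.85 ± 0.23 (edgeR SE, adjusted p = 0.00211) in Shank3 and -0.72 ± 0.24 (adjusted p = 0.0113) in WT mice. Dnajc10, a reductase with a J domain, rose by 1.14 and 1.34 (edgeR adjusted p = 0.0252 and 0.0101), and Hyou1, a lumenal Hsp70-like chaperone, by 1.32 and 0.96 (adjusted p = 0.00623 and 0.0477). Dnajc3, an inhibitor of PERK, had 1.17 in Shank3 (edgeR adjusted p = 0.0163) and 0.35 in WT mice (0.448), and Uggt1, the glycoprotein folding sensor, 0.44 (0.392) and 1.56 (0.0135). Dnajb9, an IRE1 regulator with an exon opposite another gene, had 0.97 in Shank3 (edgeR adjusted p = 0.0924) and 1.95 in WT mice (0.00769).

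Of ER-associated degradation, 14 of 18 genes were tested, and 8 rose and 2 fell in Shank3 while 5 rose and 4 fell in WT mice, with medians of 0.77 and 0.66. Vcp and Nploc4, the segregase that pulls proteins from the membrane and its cofactor, rose by 1.21 and 2.1 (edgeR adjusted p = 5.16e-05 and 0.000381) in Shank3 mice and by 1.1 and 1.79 (adjusted p = 0.000283 and 0.00264) in WT mice. Syvn1, the ubiquitin ligase HRD1, changed by -1.36 in Shank3 and -1.45 in WT mice (edgeR adjusted p = 1.17e-05 and 1.25e-05) and has an exon opposite another gene, as has Vcp. Ube2j1, an ER ubiquitin-conjugating enzyme with no gene opposite, rose by 0.9 in Shank3 (edgeR adjusted p = 0.000347) and 0.75 in WT mice (0.00302).

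The translocon list had 11 of 12 genes tested, of which 5 rose and 2 fell in Shank3 and 4 rose and 1 fell in WT mice, with medians of 0.92 and 0.72. Sec61g, a subunit of the channel, rose by 1.33 and 1.58 (edgeR adjusted p = 0.00124 and 0.00105) and Ssr3, of the translocon-associated complex, by 1.02 and 1.17 (adjusted p = 0.00163 and 0.00071). Sec61g and Ssr3 have no gene opposite. Sec62 changed by -0.79 in Shank3 and -0.94 in WT mice (edgeR adjusted p = 0.00069 and 0.000207). Ssr2, with 268 counts in all, rose by 2.71 and 2.82 (edgeR adjusted p = 0.000327 and 0.000726). Sec62 and Ssr2 have an exon opposite another gene.

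ATF4 and CHOP targets, 19 of 27 tested, had 7 rising and 3 falling genes in Shank3 and 6 and 4 in WT mice at 4 h, with medians of 0.31 and 0.18. Gars, a tRNA synthetase gene with no gene opposite, rose by 1.42 ± 0.24 (edgeR SE, adjusted p = 6.84e-06) in Shank3 and 1.26 ± 0.24 (adjusted p = 5.07e-05) in WT mice, and Asns, the asparagine synthetase, by 1.14 and 1.03 (adjusted p = 0.000714 and 0.00275). Cebpb and Atf5, both transcription factors with an exon opposite another gene, fell in both, Cebpb by 1.71 in Shank3 and 1.17 in WT mice (edgeR adjusted p = 9.32e-05 and 0.00834) and Atf5 by 1.52 and 1.54 (0.000202 and 0.000371). Slc7a11, the cystine exchanger, was the 1 gene past the threshold between Shank3 and WT mice at 4 h, with a log2 fold change of 4.91 (edgeR adjusted p = 1.47e-06). The Atf4 row had a log2 fold change of 0.02 ± 0.18 (edgeR SE) between them. ATF4 is known to induce Slc7a11, but its translation cannot be read from these counts, and its part here was not tested. At 1 h the same list had 3 rising genes in Shank3 mice and 8 rising and 1 falling in WT mice, of 19 tested, where 4.99% and 16.9% of all genes tested rose and 7.25% and 17.3% fell. Rows without any gene opposite rose in 5.27% and 21.6% and fell in 2.41% and 5.56%. Gars was then at 0.82 (edgeR adjusted p = 0.0473) and 1.86 (adjusted p = 0.000423) and Asns at 1.11 (0.039) and 1.52 (0.00501). The other lists at 1 h had 0 to 1 rising and 0 to 1 falling genes each in Shank3 and 0 to 3 and 0 to 2 in WT mice.

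**Figure D5:**
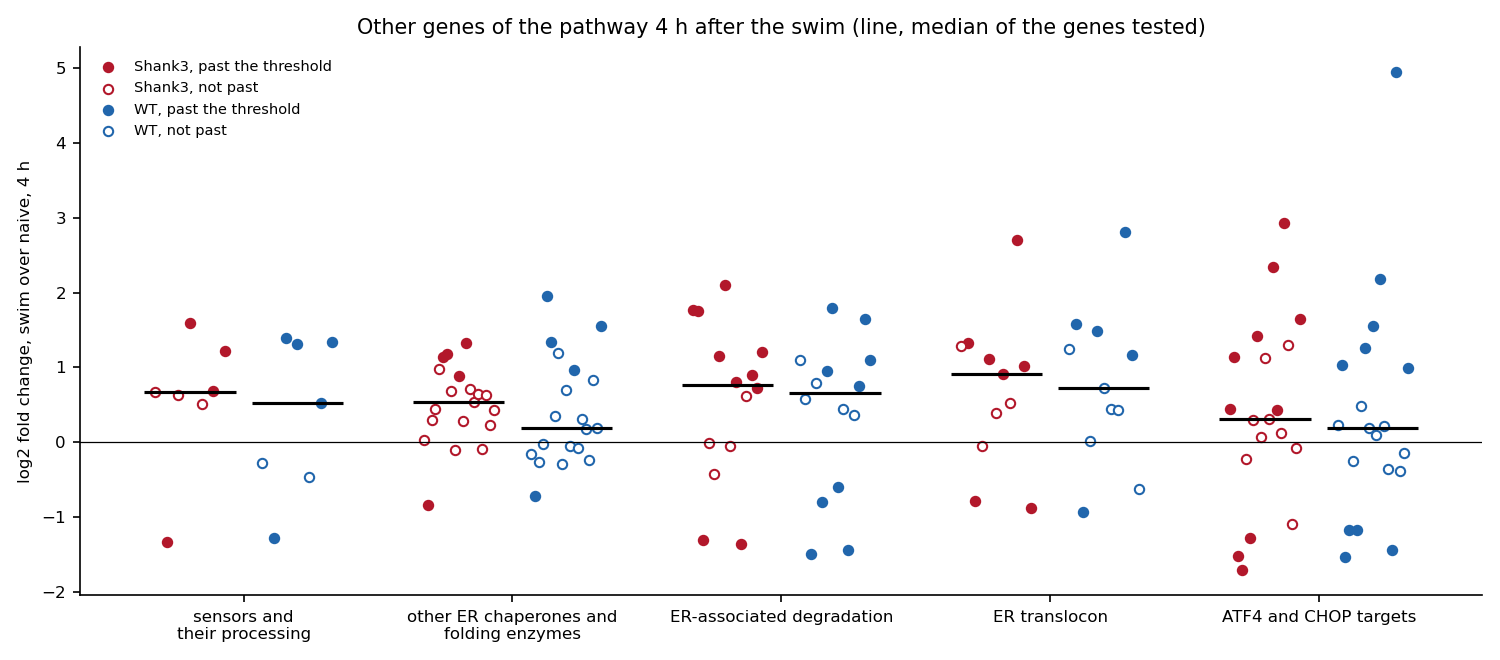
Log2 fold change of swim over naive mice at 4 h (y axis) of each tested gene of 5 pathway lists (x axis), Shank3 left of WT, filled where the adjusted p is under 0.05, with the median of the list as a line. Each list holds genes on both sides of 0, and the medians lie between 0.18 and 0.92.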

How the data were processed

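Ribosome-bound RNA of 36 libraries was deposited as raw counts per gene, 1 file per library, per the file headers. Per the submitters' processing notes, Trimmomatic 0.39, FastQC, HISAT2 2.2.0, StringTie 2.1.3, Salmon 1.4, DESeq2 and mm10 were named, with no role given, and the tool and strand setting of the counting were not stated. Per the labels, libraries were made with a TruSeq stranded kit and 15 M reads of 100 bp pairs each were aimed for. Counts were tested with edgeR 4.0.16 in R 4.3.3 (TMM, robust quasi-likelihood, filterByExpr by 8 groups, 28 residual degrees of freedom), with Benjamini-Hochberg adjustment over all 11341 genes tested and a threshold of 0.05. The SE was taken from the fold change and its F statistic, and is too small for genes of few counts. Correlations used log2(CPM + 0.5). Swim responses of each genotype, genotype differences and their interactions gave 9 comparisons. Alternatives were other scalings and filters, DESeq2 1.42.0, limma 3.58.1, a replicate block, a pair share covariate and libraries left out. Named were all members, the members' opposite rows, the 5 genes most like Hspa5 and some genes of the lists. List genes with fold changes came from the up to 4 per list and comparison with the smallest p past the threshold. Not all of these were named, with Ufd1, Derl2, Wars and Psat1 among those left out at 4 h. Eif2ak3, Ern1 and some values in the other genotype were added after their values were seen. Members and lists were chosen with earlier results of these data known. Scripts were tested on simulated data.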

Additional observations from a re-analysis of the deposited data

Results flagged for a closer look

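In 60 combinations of a member and a group of 4 to 6 libraries, 7 held a library far from the others in the level of a member, where chance alone flags about 1 in 20. Xbp1 was at 9.50 CPM in naive Shank3 replicate 6 of cohort 2, against 5.30 to 5.73 CPM in the other 3. Atf6 was at 31.1 CPM in WT 1 h replicate 3, against 13.1 to 18.9 CPM, and at 39.7 CPM in WT 4 h replicate 5, against 24.9 to 26.1 CPM. Manf was at 29.6 CPM in Shank3 4 h replicate 6, against 19.8 to 22.6 CPM, and Creld2 at 5.14 CPM in WT 4 h replicate 1, against 2.35 to 2.84 CPM. Herpud1 was at 0 CPM in naive Shank3 replicate 5, against 2.37 to 2.86 CPM, and at 1.32 CPM in naive WT replicate 5, where the others were at 0, differences of 1 or 2 counts.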

How the results depend on the processing

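Members past the threshold were 2 in Shank3 and 2 in WT mice at 1 h and 6 and 5 at 4 h. The fit on rows without any gene opposite gave 0 and 0 at 1 h and 3 and 2 at 4 h. It holds 4 members, Xbp1, Atf4, Atf6 and Hspa5, so it could not keep Ddit3, Manf or Herpud1. Neither WT call at 1 h was thus in it. Of the calls it could keep, it lost Atf4 at 1 h and Hspa5 at 4 h, both in Shank3 mice. The pair share covariate gave 1 in WT mice at 1 h and 0 and 2 at 4 h, total-count scaling 4 (Xbp1, Atf4, Hsp90b1 and Manf) and no filter 1 in WT mice at 1 h, and limma 1 (Xbp1) between the genotypes at 4 h. Whether replicate numbers pair some libraries is not known (8 of 28 same-numbered pairs correlated above 0.1, from -0.236 to 0.715). Libraries of different number had mean correlations of -0.052 to 0.017 per pair of groups. The replicate block gave 1 member in each genotype at 1 h, losing Atf4 in Shank3 and Ddit3 in WT mice. Without single libraries the counts ran from 0 to 2 in both genotypes at 1 h, 5 to 6 in Shank3 and 4 to 5 in WT mice at 4 h. The following log2 fold changes turned sign, and the cause was not tested. With total counts, which moved the median of all genes at 4 h to 1.17 in Shank3 and 0.98 in WT mice, Xbp1 was 0.15 in Shank3 mice and Atf6 0.53 and Hspa5 0.59 in WT mice at 1 h, Ddit3 0.14 and Hsp90b1 0.80 in Shank3 mice and Hsp90b1 0.52 in WT mice at 4 h. With the covariate, Hspa5 was 0.11 and Herpud1 -0.47 in WT mice at 1 h, Ddit3 0.10 and Hsp90b1 0.35 in Shank3 mice, and Atf6 -0.20, Ddit3 0.040 and Hsp90b1 0.22 in WT mice at 4 h. On rows without any gene opposite, Hspa5 was -0.054 in Shank3 mice at 1 h and Atf6 -0.049 in WT mice at 4 h. Without a filter, Atf6 was 0.018 and Hspa5 0.054 in WT mice at 1 h and Hsp90b1 0.011 in Shank3 mice at 4 h. With the replicate block, Atf6 was 0.0074 and Hspa5 0.089 in WT mice at 1 h. Hspa5 was 0.0049 in WT mice at 1 h without libraries high in ribosomal RNA, and Hsp90b1 in Shank3 mice at 4 h was 0.020 with RLE, 0.027 with DESeq2 and 0.28 without libraries of a pair share of 30% or more. Without single libraries, Hspa5 ran from -0.13 to 0.31 in Shank3 and -0.25 to 0.48 in WT mice and Atf6 from -0.32 to 0.063 in WT mice at 1 h, Hsp90b1 from -0.19 to 0.30 in Shank3 mice at 4 h, and the Atf4 interaction at 1 h from -0.045 to 0.81. Over all genes, counts moved by over 1.5 times to 60 and 872 with the covariate, and to 2184 and 1805, on rows without any gene opposite, in Shank3 and WT mice at 4 h, from 7040 and 6350. At 1 h that fit gave 179 and 797, the covariate 2461 in WT mice, and limma 2877 and the fit without high pair shares 2385 in Shank3 mice, from 1388 and 3879. Without the high pair shares 4216 genes passed in Shank3 mice at 4 h. Depth left Creld2, Pdia4 and naive Herpud1 with few counts.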
